A study of Mus musculus with 2 samples.

Results

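The genes described are the WNT ligands *Wnt2*, *Wnt2b*, *Wnt4*, *Wnt5a*, *Wnt5b*, *Wnt6*, *Wnt7b*, *Wnt9b* and *Wnt11*, together with *Ndp*, which encodes norrin, a secreted Frizzled ligand that is not a WNT protein. They were chosen by gene name, and every probe carrying 1 of these 10 names was used, which gave 11 probes of the 39429 on the array and 10 of its 29924 gene names. *Wnt4* had 2 probes and each other gene had 1. The tissue was the ureter of wild-type NMRI mice at postnatal day 0, kept as an explant on a membrane for 18 h in medium with serum and either 5 µM IWP-2 or DMSO at 1:1000. IWP-2 is a small-molecule inhibitor of Porcupine (PORCN). RNA was compared on 2 two-colour Agilent arrays, and on each of them a pool of several treated ureters was set against a pool of control ureters. Replicate 1 held female pools, with the treated RNA in the red channel, and replicate 2 held male pools, with the treated RNA in the green channel. There was thus 1 pool for each treatment and sex, and sex and dye orientation cannot be told apart.

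WNT proteins are secreted glycoproteins that bind Frizzled receptors on neighboring cells. PORCN attaches a lipid to WNT proteins in the endoplasmic reticulum, and WLS carries the modified protein to the cell surface. In the canonical branch, ligand binding stabilizes β-catenin, which acts with TCF/LEF factors on target genes such as *Axin2*. In other branches, ligands such as WNT5A signal through receptors such as ROR2. Norrin is not lipid-modified by PORCN. It activates canonical signaling through FZD4 with LRP5 or LRP6 and TSPAN12, and is best known for its role in the blood vessels of the retina. In the developing ureter, *Wnt7b* and *Wnt9b* are known as ligands of the epithelium that act on the adjacent mesenchyme. The comparison asked which of these genes changed their transcript level when the release of WNT proteins was blocked.

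Signals are intensities of the scanner software after background subtraction and dye normalization, and are means over the spots of a probe that were not marked as outliers. They depend on the hybridization of each probe, so levels of different probes are not compared. The probes of *Ndp* and *Wnt11*, which had the largest differences below 0, and the pair that read *Wnt4*, are shown 5′ to 3′ as the array files give them, so that a reader can see what each signal reads. For all but the first *Wnt4* probe, 30 of the 60 bases are given.
*Ndp*, first 30 bases: cataattgagcattagtcaagcatgtagga
*Wnt11*, first 30 bases: gaaactgataggattaaaaataacctggca
*Wnt4*, first probe, whole: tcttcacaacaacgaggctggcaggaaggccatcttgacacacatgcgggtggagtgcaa
*Wnt4*, second probe, first 30 bases: tatgaggctccttggcattgtgacatcccc

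The array files place these probes on mm9, at chrX:16462804-16462863 on the minus strand for *Ndp* and at chr7:106001985-106002045 on the plus strand for *Wnt11*. The first *Wnt4* probe is listed at chr4:136851690-136852258, so its 60 bases lie over a span of 569 bases, and the second lies downstream of it at chr4:136855342-136855401. Gene models of that build were not used here, so the exons that hold these sites are not given.

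Of the 11 probes, 8 probes of 7 genes had signals that could be tested. *Ndp* alone passed the threshold of 0.05 on the adjusted p in limma, and under IWP-2 its level fell to 44.7% of control on average, in both sexes. *Wnt11* was lower and *Wnt5a* was higher on both arrays by 1.46-fold and 1.41-fold on average, but neither passed the threshold. *Wnt4* and *Wnt5b* differed by about 1.2-fold, *Wnt6* and *Wnt7b* hardly differed in their means, and *Wnt2*, *Wnt2b* and *Wnt9b* were too dim to be tested.

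**Figure D1:**
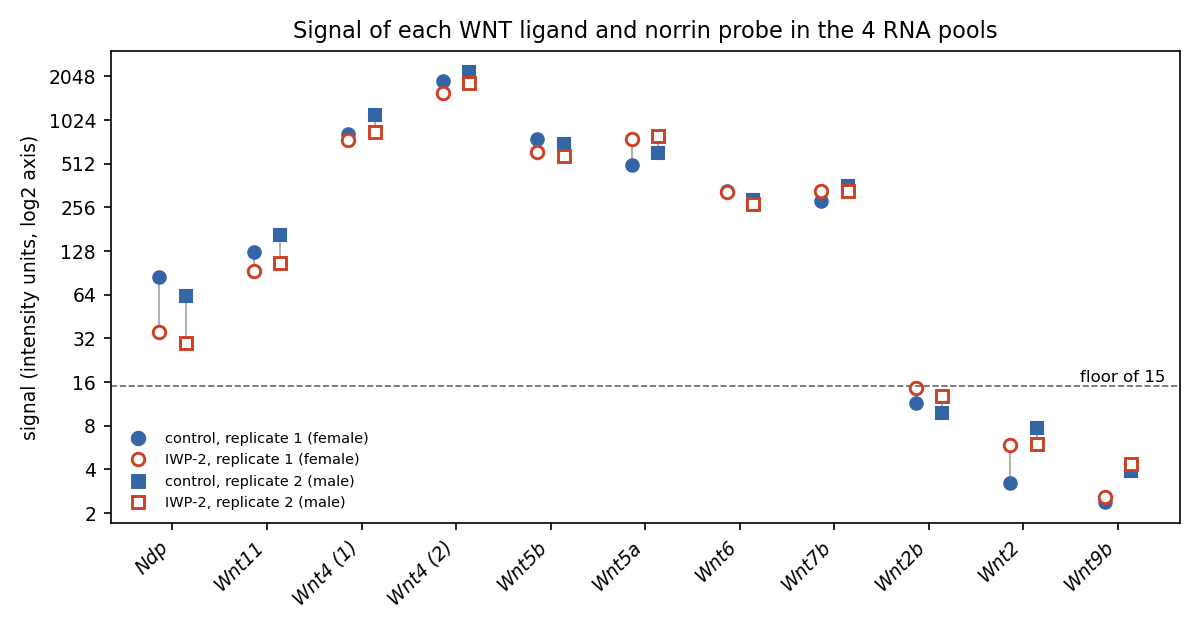
Signal (intensity units, log2 axis) of the 11 probes in the 4 pools, with filled blue symbols for control, open red symbols for IWP-2, circles for replicate 1 (female) and squares for replicate 2 (male); a line joins the pools of 1 array. *Ndp* dropped from 84.5 and 62.6 in control to 35.3 and 29.9, while *Wnt2b*, *Wnt2* and *Wnt9b* lay below the floor of 15 (dashed), and heights of different probes are not comparable.

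*Ndp* gave a signal of 84.5 in the female control pool and 35.3 in the female treated pool. In the male pools its signal was 62.6 in control and 29.9 with IWP-2. Both treated pools lay below both control pools. The 4 spots of the probe did not overlap between the channels of either array. They spanned 80.3 to 87.4 in control and 33.5 to 39.2 with IWP-2 in replicate 1, and 54.9 to 69.0 and 27.4 to 32.8 in replicate 2. The treated level was thus 41.8% and 47.7% of the control level on the 2 arrays. The mean log2 ratio of IWP-2 over control was −1.16 (SE 0.082, n = 2 arrays, 95% interval −1.37 to −0.96), with an adjusted p of 0.0144 in limma's moderated test over all 23721 probes tested. That test called 118 probes (0.497% of those tested), of which 90 were lower (0.379%) and 28 higher (0.118%). *Ndp* was the 1 member probe called among 8, and 0.118% of all tested probes had a mean ratio at or below its own. An exact test of the 2 arrays alone cannot give a p below 0.5, so the call rests on the spread that limma shares between probes. It was lost with a floor of 1 in place of 15 (adjusted p = 0.0532) and with the 4 channels as separate samples (0.436). It was also lost with probes at the floor kept in the test, as first planned (0.445), where 0 probes of any gene were called. The call held in 5 of the 8 other settings that tested *Ndp*, whose adjusted p in limma went down to 0.00497.

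A filter after the one in the study's text, applied here as a control signal above 100 and at least a 1.5-fold difference on each array, held no member probe on the signals used here. Among the 17961 probes with such a control signal, 58 were lower (0.323%) and 14 higher (0.0779%). On these signals *Ndp* had the fold but not the control level. Intensities in the study's own tables lie on a higher scale, so this does not show which genes passed there. With a control signal above 50, or with a control merely well above background, it was the 1 member probe to pass.

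The genes whose pair of log2 ratios lay nearest to that of *Ndp* over the 2 arrays were *Pcdh8*, a protocadherin (−1.24 and −1.06), and *Ptprr* (−1.29 and −1.13) and *Ptpn5* (−1.26 and −1.16), which encode protein tyrosine phosphatases. The *Ndp* ratios were −1.26 and −1.07. Likeness was measured by Euclidean distance over 2 arrays, which share their control pools with *Ndp*, and all 3 of these genes were themselves called lower.

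**Figure D2:**
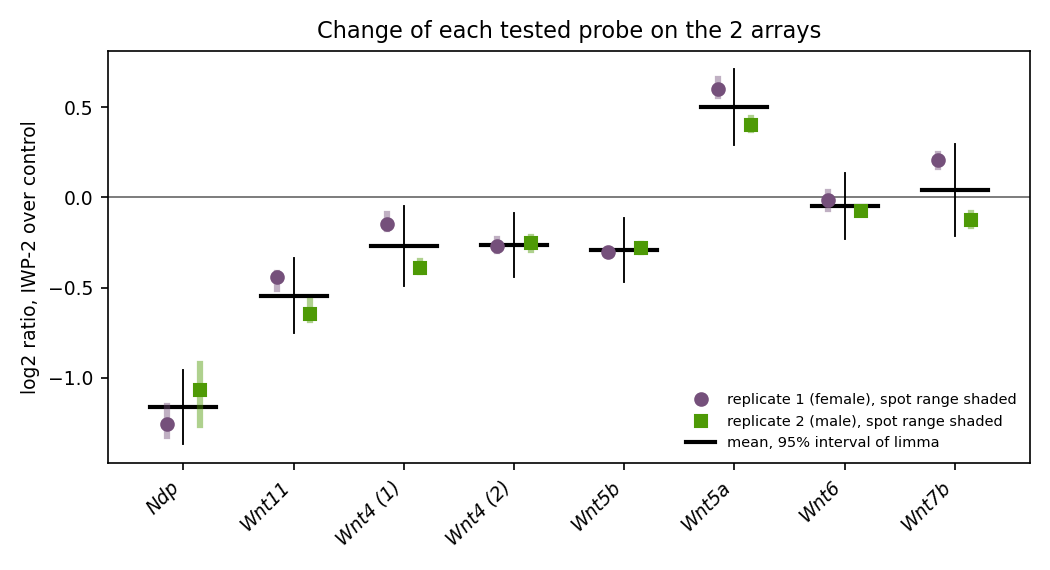
Log2 ratio of IWP-2 over control for the 8 tested probes, with a purple circle for replicate 1 (female), a green square for replicate 2 (male), shaded bars from the lowest to the highest spot, a black bar for the mean and a thin line for its 95% interval from limma. *Ndp* lay at −1.26 and −1.07, *Wnt5a* lay above 0 on both arrays, and *Wnt7b* lay above 0 on 1 array and below 0 on the other.

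The ligands *Wnt5a*, *Wnt5b* and *Wnt11* are known mainly for signaling without β-catenin, including the orientation of cells within a tissue. They did not share a direction. *Wnt5a* gave 503 in control and 763 with IWP-2 in the female pools, and 603 and 795 in the male pools, so that both treated pools lay above both controls. The treated level was 152% and 132% of the control level, with a mean log2 ratio of 0.50 (SE 0.083, n = 2 arrays, 95% interval 0.29 to 0.71). Its adjusted p was 0.0997 in limma, which misses the threshold, although 99.0% of all tested probes had a mean ratio at or below that of *Wnt5a*. It reached 1.5-fold in replicate 1 (1.52-fold) and not in replicate 2 (1.32-fold). The spots kept to their array, with log2 ratios of 0.56 to 0.66 in replicate 1 and of 0.38 to 0.44 in replicate 2.

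*Wnt11* gave 126 in control and 93.0 with IWP-2 in replicate 1, and 166 and 106 in replicate 2. The treated pools again lay on 1 side, below both controls. The treated level was 73.6% and 64.0% of the control level, with a mean log2 ratio of −0.54 (SE 0.083, n = 2 arrays, 95% interval −0.75 to −0.33) and an adjusted p of 0.0892 in limma. Here the larger difference was on the male array, at 1.56-fold, and the female array gave 1.36-fold. Where probes with a signal above 100 in at least 1 condition were tested alone, the adjusted p of *Wnt11* was 0.0494. With 1 probe per gene name in addition, those of *Wnt11* and *Wnt5a* were 0.0339 and 0.0410, so both calls depend on which probes are tested with them. Over 10 alternatives the adjusted p in limma ranged from 0.0339 to 0.582 for *Wnt11* and from 0.0410 to 0.526 for *Wnt5a*.

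*Wnt5b*, the paralog of *Wnt5a*, gave 756 in control and 613 with IWP-2 in replicate 1, and 703 and 579 in replicate 2. Its log2 ratios of −0.30 and −0.28 were nearly equal on the 2 arrays. The mean was −0.29 (SE 0.072, n = 2 arrays, 95% interval −0.47 to −0.11), with an adjusted p of 0.185 in limma. *Wnt5a* and *Wnt5b* thus lay on opposite sides of 0 on both arrays, a difference that was not tested.

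*Wnt4* encodes a ligand required for nephron formation in the kidney. Its first probe gave 821 in control and 742 with IWP-2 in replicate 1, where 3 of the 4 spots were kept, and 1114 and 850 in replicate 2. The second probe gave 1906 and 1580 in replicate 1, and 2190 and 1835 in replicate 2. The 2 probes had close means, −0.27 and −0.26 on the log2 scale, but differed in how even the arrays were. Ratios of the first were −0.14 and −0.39, while those of the second were −0.27 and −0.25. The adjusted p in limma was 0.283 for the first and 0.213 for the second, and the 95% intervals ran from −0.49 to −0.04 and from −0.44 to −0.08.

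*Wnt6* and *Wnt7b* are known as ligands of epithelia. *Wnt6* gave 331 in control and 327 with IWP-2 in replicate 1, and 286 and 271 in replicate 2, with a mean log2 ratio of −0.05 (95% interval −0.23 to 0.14) and an adjusted p of 0.923 in limma. *Wnt7b* gave 286 and 330 in the female pools, and 359 and 330 in the male pools. The 2 treated pools had nearly the same signal, and the control pools lay on either side of them. The log2 ratio was 0.21 on the female array and −0.12 on the male array, and every spot carried the sign of its array, with 0.17 to 0.24 and −0.16 to −0.09. The mean was 0.04 (95% interval −0.21 to 0.30), with an adjusted p of 0.962 in limma, so that the sign of the mean comes from the female array.

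*Wnt2*, *Wnt2b* and *Wnt9b* lay under the floor of 15 in both channels of both arrays and have no ratio there. *Wnt2b* gave 11.5 in control and 14.6 with IWP-2 in replicate 1, and 9.85 and 12.7 in replicate 2, and was well above the local background in all 4 channels. *Wnt2* gave 3.24 and 5.89 in replicate 1, and 7.71 and 6.02 in replicate 2, and its control was well above background on 1 array of 2. *Wnt9b* was listed at 2.40 and 2.59 in replicate 1 and at 3.88 and 4.37 in replicate 2. Its control was well above background on neither array and its treated channel on 1. With a floor of 1, *Wnt2b* had a mean log2 ratio of 0.36 with an adjusted p of 0.224, and *Wnt2* of 0.25 with an adjusted p of 0.872, both in limma.

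Across the 8 tested member probes, 6 were below 0 on both arrays, 1 was above 0 on both (*Wnt5a*) and 1 changed sign (*Wnt7b*). Of all tested probes, 28.3% were below 0 and 28.2% above 0 on both. The 5th and 95th percentiles of the mean log2 ratio over all tested probes were −0.24 and 0.28, and 5 member probes of 4 genes (*Ndp*, *Wnt11*, *Wnt5b* and both of *Wnt4*) lay below the former and 1, *Wnt5a*, above the latter. An unadjusted p under 0.05 was reached by 6 of the 8 probes and by 13.4% of all tested probes. With 1 probe for each gene, the median of the 7 tested genes was −0.26, and that of all 17812 tested genes was −0.01. These counts describe genes chosen with earlier results known, and 2 of the probes read 1 gene.

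**Figure D3:**
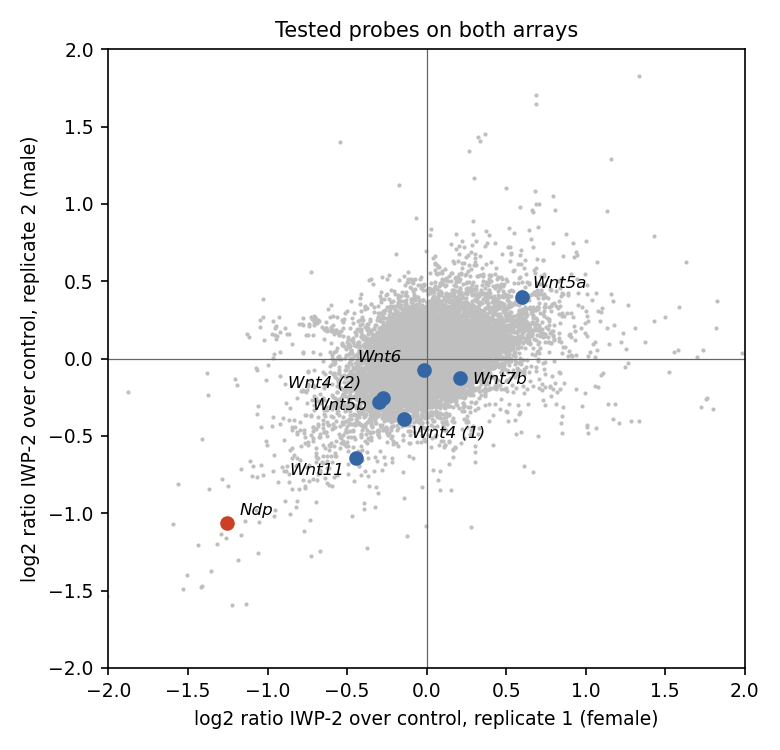
Log2 ratio of IWP-2 over control in replicate 1 (x axis) and replicate 2 (y axis) for tested probes (gray), of which 23702 lie within the axes and 19 outside them; member probes are blue, and red where called. *Ndp* lies at the lower left at −1.26 and −1.07, *Wnt5a* in the upper right quadrant, and *Wnt7b* right of 0 on the x axis and below 0 on the y axis.

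Of the other 10 WNT ligands of the mouse on the array, 4 could be tested and 0 were called in limma (2 at an unadjusted p under 0.05), against 1 of the 7 tested members (of all genes tested, 0.438% were called lower and 0.107% higher). *Wnt7a* had the largest mean log2 ratio, −0.80, but its arrays were far apart, at −0.37 and −1.22, and its adjusted p was 0.185. *Wnt9a* had −0.25, *Wnt1* −0.07 and *Wnt10a* 0.18. *Wnt10b* and *Wnt16* were well above background but at the floor.

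The genes for making and releasing WNT proteins were near 0 apart from *Notum*. *Porcn*, whose product IWP-2 inhibits, gave 1791 in control and 1696 with IWP-2 in replicate 1, and 1920 and 1915 in replicate 2 (mean log2 ratio −0.04, adjusted p = 0.940 in limma). *Wls* had a mean log2 ratio of −0.08 (adjusted p = 0.803). *Notum* encodes an enzyme that removes the lipid from secreted WNT proteins and is itself a canonical target. It fell by 0.69 on the log2 scale (−0.67 and −0.72, adjusted p = 0.0434) and was the 1 gene of 3 called.

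The receptor complex of norrin had 0 of 4 genes called in limma (1 at an unadjusted p under 0.05). *Fzd4* had a mean log2 ratio of 0.24, *Lrp6* of 0.17, *Lrp5* of −0.04 and *Tspan12* of −0.09, with adjusted p-values of 0.244, 0.390, 0.950 and 0.751 in limma. All of them were thus above or near 0, whereas the ligand gene *Ndp* lay at −1.16. Among the alternative WNT receptors, which serve ligands such as WNT5A, 0 of 4 were called in limma (2 at an unadjusted p under 0.05). By their brightest probes all 4 were below 0 on both arrays, but a second, dim *Ror1* probe was at 0.52 and −0.04. *Ror2* had −0.37 (−0.48 and −0.26, adjusted p = 0.171), where *Wnt5a* was at 0.50. By their brightest probes, 6 of the 10 Frizzled receptor genes were below 0 on both arrays (28.3% of all tested probes). A second *Fzd7* probe was at 0.07 and −0.14. In limma 0 of the 10 were called and 3 had an unadjusted p under 0.05 (13.4% of all tested probes). *Fzd1*, at −0.61 with an adjusted p of 0.0779, was called with normexp and with a signal above 100. Of the 2 tested R-spondin genes, 0 were called in limma and both had an unadjusted p under 0.05 (13.4% of all tested probes). Both were below 0 on both arrays (28.3% of all tested probes), with a median log2 ratio of −0.44.

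The feedback genes of canonical WNT signaling had 8 of 14 tested members called, all lower, against 0.438% of all genes. Their median log2 ratio was −0.80. *Lgr5*, an R-spondin receptor gene, fell most, with a log2 ratio of −3.12 whose size depends on the floor, since its treated signal reached the floor in replicate 1. *Sp5*, a transcription factor gene, fell by 2.16 and *Tcf7*, which encodes a TCF factor, by 1.36 on the log2 scale. *Axin2*, a negative regulator of β-catenin, gave 181 in control and 42.2 with IWP-2 in replicate 1, and 154 and 46.7 in replicate 2 (mean log2 ratio −1.91, adjusted p = 0.00832 in limma). A second, dim *Axin2* probe had a mean of −0.32 and was not called. Its controls gave 20.2 and 17.3 and both treated signals were at the floor, so the size of this ratio depends on the floor. *Ndp* at −1.16 lay between *Tcf7* and the median of these genes, while the 6 tested WNT genes among the members lay above that median, from −0.54 for *Wnt11* upward. The lists were written with the earlier results known.

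**Figure D4:**
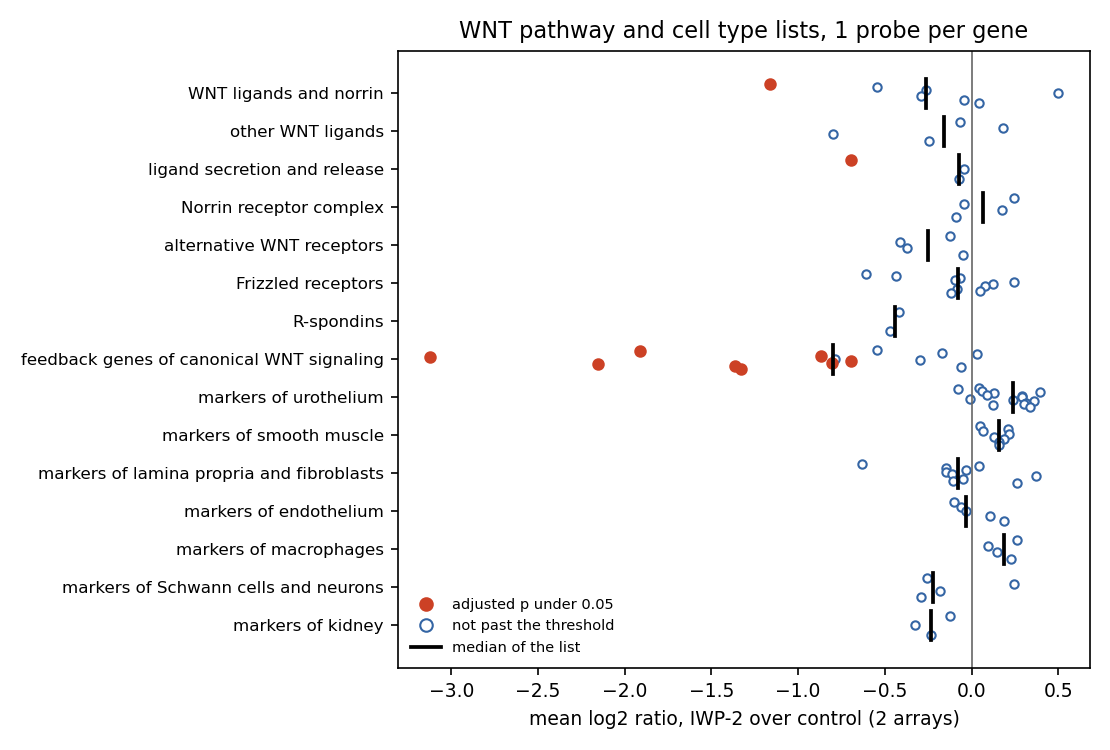
Mean log2 ratio of IWP-2 over control (x axis) for each tested gene in the lists, 1 probe for each gene, red where the adjusted p was under 0.05 and open blue otherwise, with a black bar for the median of the list. The feedback genes have a median of −0.80 with 8 red points, the WNT ligands and norrin a median of −0.26 with 1 red point, and the marker lists have none.

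In bulk RNA, fewer cells of a type and less RNA per cell cannot be told apart, so marker genes of the cell types of the ureter are given beside these values. Of all tested probes, 28.2% were above 0 on both arrays and 13.4% had an unadjusted p under 0.05 in limma. Markers of the urothelium were all detected (15 of 15 tested), 11 were above 0 on both arrays, and 0 were called in limma (8 at an unadjusted p under 0.05). Their median log2 ratio was 0.35 in replicate 1 and 0.12 in replicate 2, and *Wnt7b*, at 0.21 and −0.12, was below this median on both arrays. The summed signal of these markers went from 170010 to 211958 and from 205496 to 212187. That sum adds different probes and is weighted to the brightest, so it does not measure the amount of urothelium. Smooth muscle markers (8 of 8 tested) had a median of 0.16, and macrophage markers (4 of 4) of 0.19. Markers of the lamina propria and other fibroblasts (10 of 10) had a median of −0.08, those of the endothelium (5 of 5) of −0.03 and those of Schwann cells and neurons (4 of 5) of −0.22. Of the kidney markers 3 of 9 were tested (*Six2*, *Lrp2* and *Cubn*), with a median of −0.23. In control, *Six2* gave 211 and 157, *Lrp2* 22.8 and 61.4 and *Cubn* 38.6 and 45.7, while *Nphs1*, *Umod* and *Slc12a1* were at the floor. By their brightest probes the 49 marker genes tested, of which 0 were called in limma and 17 had an unadjusted p under 0.05, ranged from −0.63 (*Aldh1a2*, a lamina propria gene, adjusted p = 0.0770) to 0.39 (*Grhl3*), so that *Ndp* lay below and *Wnt5a* above all of these. Other probes of 2 markers lay above *Wnt5a*. A second *Ptch1* probe (1.13 and 0.95, mean 1.04) was called higher (adjusted p = 0.0199 in limma), and another *Trp63* probe had a mean of 0.62 and was not called. The part of cell composition in the results was not tested.

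Promoter sequences were searched for CTTTG followed by 2 letters that are each A or T, on either strand, a short form of the TCF/LEF motif. RefSeq promoters of the GRCm38.p6 build, 250 bases before the start, were at hand for 8 of the 10 genes and not for *Wnt5a* and *Wnt7b*. A match was found for 3 of the 8 genes and in 3 of their 11 promoters. The shares over all were 16.8% of 27025 genes with a promoter and 14.8% of 32851 promoters. *Wnt11* held ATCAAAG 51 bases before 1 of its 2 starts, and *Wnt5b* held CTTTGAT 71 bases before 1 of its 3 starts. *Ndp* held CTTTGTA 171 bases before its start. Its promoter, at chrX:16911775-16912024 on the minus strand, is shown because *Ndp* was the member called, with the match in capitals.
*Ndp* promoter: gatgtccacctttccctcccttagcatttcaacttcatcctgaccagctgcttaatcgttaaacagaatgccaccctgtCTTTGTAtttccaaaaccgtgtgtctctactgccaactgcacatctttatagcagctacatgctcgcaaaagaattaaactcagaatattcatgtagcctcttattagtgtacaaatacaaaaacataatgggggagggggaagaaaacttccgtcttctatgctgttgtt
Its GC content was 41.2%, against a median of 52.4% over all promoters. The *Wnt11* and *Wnt5b* promoters with a match had GC contents of 70.8% and 55.6%. Member promoters without a match ranged from 53.2% (1 of *Wnt5b*) to 85.2% (*Wnt4*). A match describes the letters only, and binding was not measured.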

How the data were processed

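Total RNA was labeled after 1 round of amplification and hybridized to 2 Agilent two-colour arrays on 1 slide. The authors' scanner files hold the processed intensity of each spot, background-subtracted and dye-normalized by Feature Extraction (12.2.0.7 per the file headers, 10.7.3.1 in the submitters' processing notes), the mean and local background intensities, from which normexp started, and a log10 ratio (red over green) that served to check direction. The latter matched the processed signals within 0.001 for 82.8% and 83.1% of spots and was 0 for the rest. In the deposited series table each probe has a score, a signed fold change rounded to 1 decimal. The arrays themselves gave its direction and scale (r = 0.973 and 0.959, median log2 value 0 on each), and its centring is not stated. The dyes of each channel come from the labels.

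The members and gene lists were chosen with earlier results of these data known. Control spots (17263) and outlier-flagged spots (3.32% and 3.22%) were left out, and 0 spots were saturated. Signals were normalized by loess within each array (limma 3.58.1, R 4.3.3). Spots of 1 probe were averaged, a floor of 15 was set and log2 was taken. Probes were tested if well above background, in more than 0.5 of their spots, on both arrays in control or on both arrays in treated pools. Probes at the floor in both channels of an array were then left out. The test first planned kept them and called 0 of 26849 probes. Leaving them out was chosen after seeing this and their spread of 0, so the calls of the main fit rest on that choice. Ratios of IWP-2 over control were tested against 0 with lmFit and eBayes (1 residual degree of freedom) and Benjamini-Hochberg adjustment at 0.05 over all 23721 tested probes. Control and treated pools are paired by sharing an array. P-values measure the spread between 2 arrays of 1 pool each, and the number of arrays limits the precision. Spots of 1 probe had a median SD of 0.035 and 0.033 on the log2 scale. In the lists, each gene stands by its brightest probe over the 4 channels.

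All member probes are named. Other ligands are named if above background, other pathway genes if called (up to 4 a list, with *Porcn*, *Wls*, *Fzd4*, *Lrp5*, *Lrp6*, *Tspan12*, *Ror2* and *Axin2* in any case), and the 3 nearest genes for a called member. *Nphs1*, *Umod*, *Slc12a1*, *Six2*, *Lrp2*, *Cubn*, *Aldh1a2* and *Grhl3* were named, with *Ptch1*, *Trp63*, *Ror1*, *Fzd1*, *Fzd7*, *Apcdd1*, *Nkd1* and *Lef1*, after their values were seen. Some items are not reported here. The steps were tested on simulated data. Alternatives changed the background correction, normalization, floor, spot summary, filter, probe choice, pairing and replicates. Columns of per-sample values left unused: 0.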

Additional observations from a re-analysis of the deposited data

Results flagged for a closer look

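*Wnt7b* moved in opposite directions on the 2 arrays, with a log2 ratio of 0.21 in the female and −0.12 in the male pools, a female minus male difference of 0.33. *Lrp5* did so too, with 0.06 and −0.14 and a difference of 0.20. Of the marker lists, the medians for the lamina propria and fibroblasts (−0.17 and 0.04, difference −0.22), the endothelium (−0.13 and 0.14, difference −0.27) and Schwann cells and neurons (−0.30 and 0.05, difference −0.35) had opposite signs. These differences were not tested, since each sex has 1 array, and sex and dye orientation cannot be told apart.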

How the results depend on the processing

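The *Ndp* ratio was below 0 in all 8 alternatives that tested it and changed the fit, from −1.20 to −0.88, and was called in 5, with adjusted p-values in limma from 0.00497 to 0.445. A floor of 1 left 0 member probes called (7 at an unadjusted p under 0.05; *Ndp* adjusted p = 0.0532). Without the replicate block, with the 4 channels as separate samples, 0 member probes were called (4 unadjusted; *Ndp* adjusted p = 0.436), as were 7 lower (851 unadjusted) and 0 higher probes (916 unadjusted) of all. Keeping probes at the floor, as the test was first planned, gave 0 member calls (5 unadjusted) and 0 lower and 0 higher calls (1563 and 1402 unadjusted). Leaving them out was the choice made after seeing the data. A signal above 100 with 1 probe per gene name called 2 member probes, *Wnt11* and *Wnt5a*, and *Ndp* was not tested there. *Wnt11* was called in 2 of 10 alternatives and *Wnt5a* in 1 of 10, each with 1 direction in all of them. For *Ndp*, *Wnt11* and *Wnt5a*, alternatives in the floor, the pairing or the probes tested left the ratio unchanged. Only the other alternatives could have changed its direction.

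In place of 90 lower and 28 higher probes, normexp gave 179 and 92, a floor of 1 gave 48 and 6, and the higher count was 17 without loess, 15 with the spot median, 43 with a signal above 100 and 52 with 1 probe per gene name. Dropping the filter on dim probes left the same 23721 probes, so it was no test. Pathway genes called went from 8 to 11 with normexp (*Apcdd1*, *Fzd1* and *Nkd1* added) and to 9 with a signal above 100 (the same 3 added, *Lef1* and *Sp5* not tested). The median of the feedback genes was −0.68 with normexp, and −0.84 to −0.73 with 1 array. With the fold filter, a fold of 2 gave 20 lower and 0 higher probes, a control well above background 103 and 35, and that control or one above 50 gave 1 member, *Ndp*. Leaving out either array gave 87 to 181 lower and 32 to 197 higher probes and 1 member each, *Wnt11* without replicate 1 and *Wnt5a* without replicate 2. *Wnt7b* lay between −0.12 (without replicate 1, a reversal) and 0.21 (without replicate 2). The causes were not tested. The series table, with equal values on both arrays for 31.4% of tested probes, was given no test. It listed *Wnt6* at 0 and *Wnt5b* at −0.32 on the log2 scale. Dim signals limit *Wnt2*, *Wnt2b* and *Wnt9b*.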
